A study of Caenorhabditis elegans with 18 samples.

Results

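The ugt genes of Caenorhabditis elegans encode UDP-glucuronosyltransferases, and their transcripts were followed here in worms fed 3 bacterial diets for 3 or 10 days. Members were all probe sets whose platform annotation gives 1 gene symbol of the form ugt- followed by a digit, which gave 68 of the 22625 probe sets of the array. These stand for 64 genes of the 17118 with a probe set of their own. ugt-46 and ugt-48 had 2 probe sets each and ugt-50 had 3. All 68 matched by gene ID in RefSeq, whose table (assembly WBcel235, used for names and for which genes lie side by side) lists 67 ugt genes. Of the 68 probe sets, 15 carry a suffix letter, the manufacturer's mark for probes that can bind more than 1 transcript.

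UDP-glucuronosyltransferases sit in the membrane of the endoplasmic reticulum and join a sugar from a UDP-sugar to small lipophilic compounds such as drugs, toxins, steroids and breakdown products of haem. The conjugates are more soluble in water and can be exported from the cell. This is the second step of detoxification, after oxidation or reduction by cytochromes P450 and short-chain dehydrogenases, and it runs beside conjugation by glutathione S-transferases. The worm family is large, and many sugar conjugates found in this animal carry glucose. Substrates of single worm members are mostly unassigned, so the genes are described here by level and by response.

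All 18 arrays came from the wild type strain N2, with 3 arrays in each of 6 groups. The groups were worms fed Lactobacillus rhamnosus CNCM I-3690 for 10 or 3 days, worms fed Lactobacillus rhamnosus CNCM I-4317 for 10 or 3 days, and worms fed Escherichia coli OP50, the control diet, for 10 or 3 days. CNCM I-3690 was the strain that the study picked in a screen for resistance to oxidative stress, and CNCM I-4317 is another strain of its species. Populations were synchronized from embryos and RNA was taken from whole worms, so intestine, muscle, hypodermis, neurons and germ line are mixed in every value. In such bulk RNA, fewer cells of a type and less RNA per cell cannot be told apart. The arrays of a group are labelled as separate samples but not as separate cultures, so p-values measure the spread between these arrays. The study's methods state 4 biological replicates per condition, while the legends of its tables speak of hybridization in triplicate. Each labelled group holds 3 arrays.

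Values are log2 intensities, so a difference of 1 is a change of signal by a factor of 2. They ran from -0.06 to 12 over all probe sets and arrays, and the median of an array lay between 1.27 and 1.40. Over all probe sets, arrays of 1 group correlated at 0.981 to 0.996, and over the 68 ugt probe sets at 0.921 to 0.990. A probe set was called where its adjusted p was below 0.1 in a fit over all 22625 probe sets.

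Most ugt transcripts gave weak signal. Mean values over all 18 arrays ran from 0.37 to 5.56 with a median of 1.37, beside 1.34 for all probe sets. On every array, 21 of the 68 lay above that array's median and 17 lay below it, and the other 30 moved across it. Only 3 exceeded the 75th percentile, which was 4.18 to 4.37, on every array. ugt-64, ugt-58, ugt-12, ugt-22 and ugt-44 had the highest means, at 5.56, 5.16, 4.80, 4.73 and 4.70. Probes differ in affinity, so these values rank signals and not amounts of transcript.

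**Figure D1:**
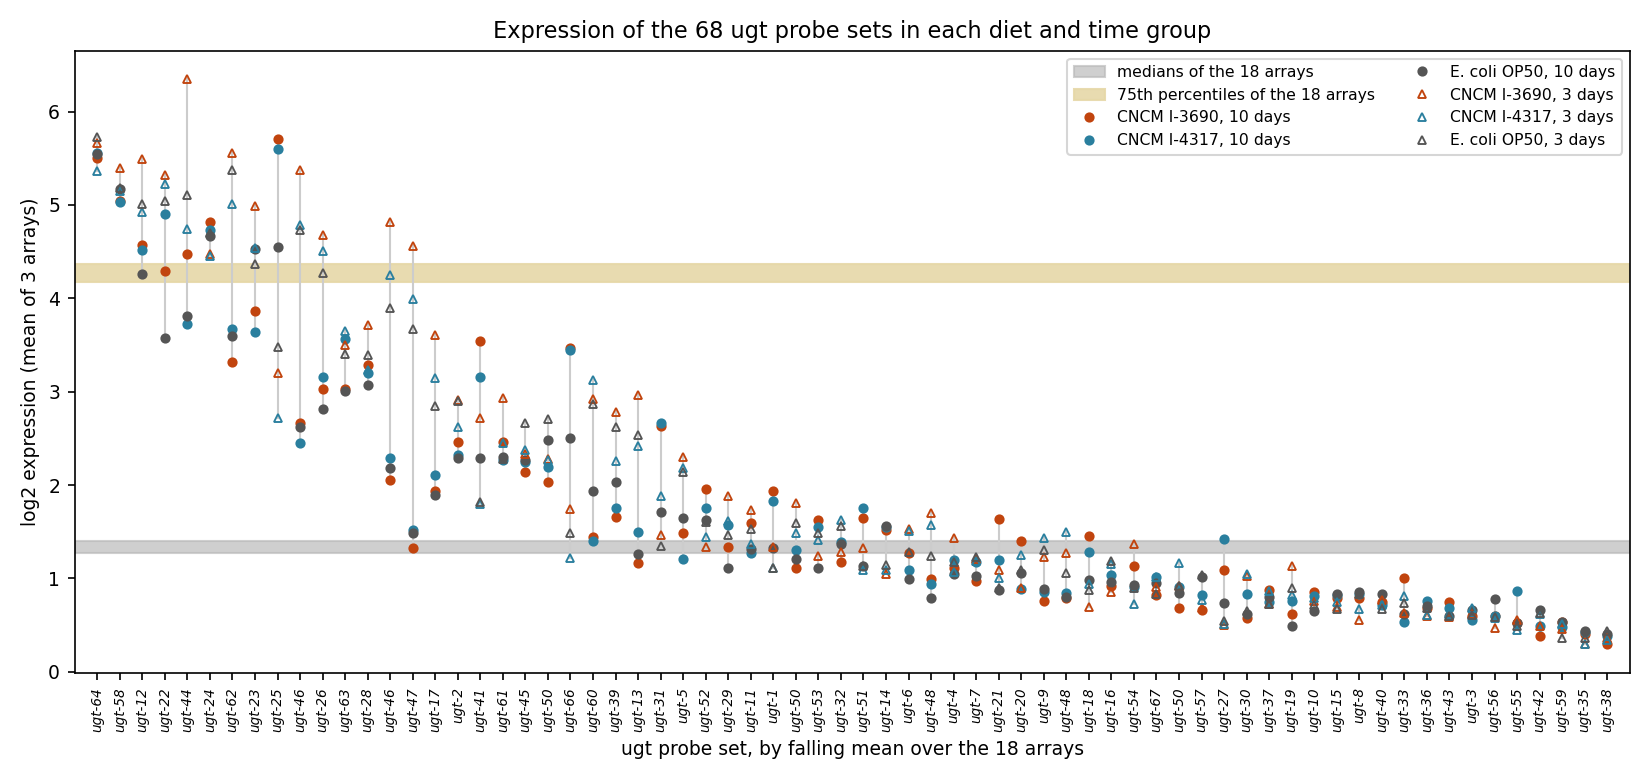
Mean log2 signal of the 68 ugt probe sets, ordered from the highest to the lowest mean over 18 arrays (filled circles, groups at 10 days; open triangles, groups at 3 days; 1 colour per diet). The bands mark the array medians (1.27 to 1.40) and the 75th percentiles (4.18 to 4.37), and most probe sets lie near or below the lower band.

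The brightest member, ugt-64, varied little between arrays of a group (SD within groups 0.096), and its group means spanned 0.37. It gave 5.48, 5.58 and 5.43 on CNCM I-3690, with 5.50, 5.54 and 5.62 on CNCM I-4317 and 5.53, 5.51 and 5.59 on OP50 at 10 days. At 3 days it gave 5.77, 5.55 and 5.65 on CNCM I-3690, with 5.32, 5.41 and 5.37 on CNCM I-4317 and 5.82, 5.53 and 5.85 on OP50. At 3 days all CNCM I-4317 arrays lay below all arrays of the other diets, but ugt-64 was called in none of the 12 comparisons. ugt-58 lay between 4.79 and 5.45 on all arrays, and its 1 call, lower at 10 than at 3 days on CNCM I-3690 by 0.36 (SE 0.14, adjusted p = 0.0738), was lost after centring each array on its median and without any 1 array of those groups except the first at 10 days. Without the second 10-day array the difference was -0.24 (adjusted p = 0.318).

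More ugt transcripts were called with time on a diet than between diets. Between 10 and 3 days on CNCM I-3690, 12 of the 68 rose (17.6%, beside 17.3% of all probe sets) and 23 fell (33.8%, beside 12.6%). On CNCM I-4317, 8 rose (11.8%, beside 15.4%) and 15 fell (22.1%, beside 10%). On OP50, 3 rose (4.41%, beside 5.41%) and 12 fell (17.6%, beside 5.37%). The share that rose was close to or below that of the whole array on each diet, and the share that fell was above it on each diet. The median ugt difference was -0.15 on CNCM I-3690, -0.08 on CNCM I-4317 and -0.07 on OP50, beside 0.04, 0.03 and 0.02 for all probe sets. No test compared the family with other genes.

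How calls split by direction over the whole array depended on scaling. On CNCM I-3690, 57.9% of all calls were higher at 10 days with the deposited values, 40.1% after cyclic loess and 69.9% after centring each array on its median. On CNCM I-4317 these shares were 60.6%, 46.2% and 69.6%. On CNCM I-3690 the ugt calls were 12 higher and 23 lower with the deposited values, 11 and 24 after cyclic loess, and 15 and 20 after centring. On CNCM I-4317 they were 8 and 15 both with the deposited values and after cyclic loess, and 10 and 13 after centring.

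Calls were fewest among the dimmest members. On CNCM I-3690, 3 of the 21 probe sets above the median on every array rose and 12 fell, of the 30 that moved across it 8 rose and 10 fell, and of the 17 below it on every array 1 rose and 1 fell. On CNCM I-4317, 2 rose and 6 fell of the 21, 5 rose and 9 fell of the 30, and 1 rose and none fell of the 17. On OP50, 1 rose and 8 fell of the 21, 2 rose and 4 fell of the 30, and none of the 17 was called. A member that changes can cross the median, so the change itself partly sets which probe sets are among the 30. A member near the lower end of the scale has little room to fall, so a missing call there says little about its transcript. Shares for all probe sets in the same classes are not given, so these counts only describe the ugt members.

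Altogether 38 of the 68 were called on at least 1 diet (55.9%, beside 37.8% of all probe sets). On all 3 diets the same 3 rose (ugt-25, ugt-66 and ugt-14; 4.41%, beside 3.65%) and the same 9 fell (ugt-47, both probe sets of ugt-46, ugt-62, ugt-26, ugt-17, ugt-60, ugt-13 and ugt-9; 13.2%, beside 3.95%). A further 11 were called on 2 diets (16.2%, beside 13.1%), 15 on 1 (22.1%, beside 17.1%) and 30 on none. All members called on OP50 were also called on CNCM I-3690, and 20 were called on CNCM I-3690 but not on OP50 (29.4%, beside 21.3%). Across the 68 probe sets, the 10-day minus 3-day differences on CNCM I-3690 correlated with those on OP50 at 0.923 (Pearson) and 0.812 (Spearman), with the same sign in 52. Over all probe sets the Pearson value was 0.777. The other pairs of diets lay closer to the whole array. The Pearson value was 0.864 for CNCM I-4317 with OP50 (beside 0.818) and 0.928 for CNCM I-3690 with CNCM I-4317 (beside 0.905). The arrays behind these differences are separate, but all share the array design, and probe sets are not independent replicates.

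**Figure D2:**
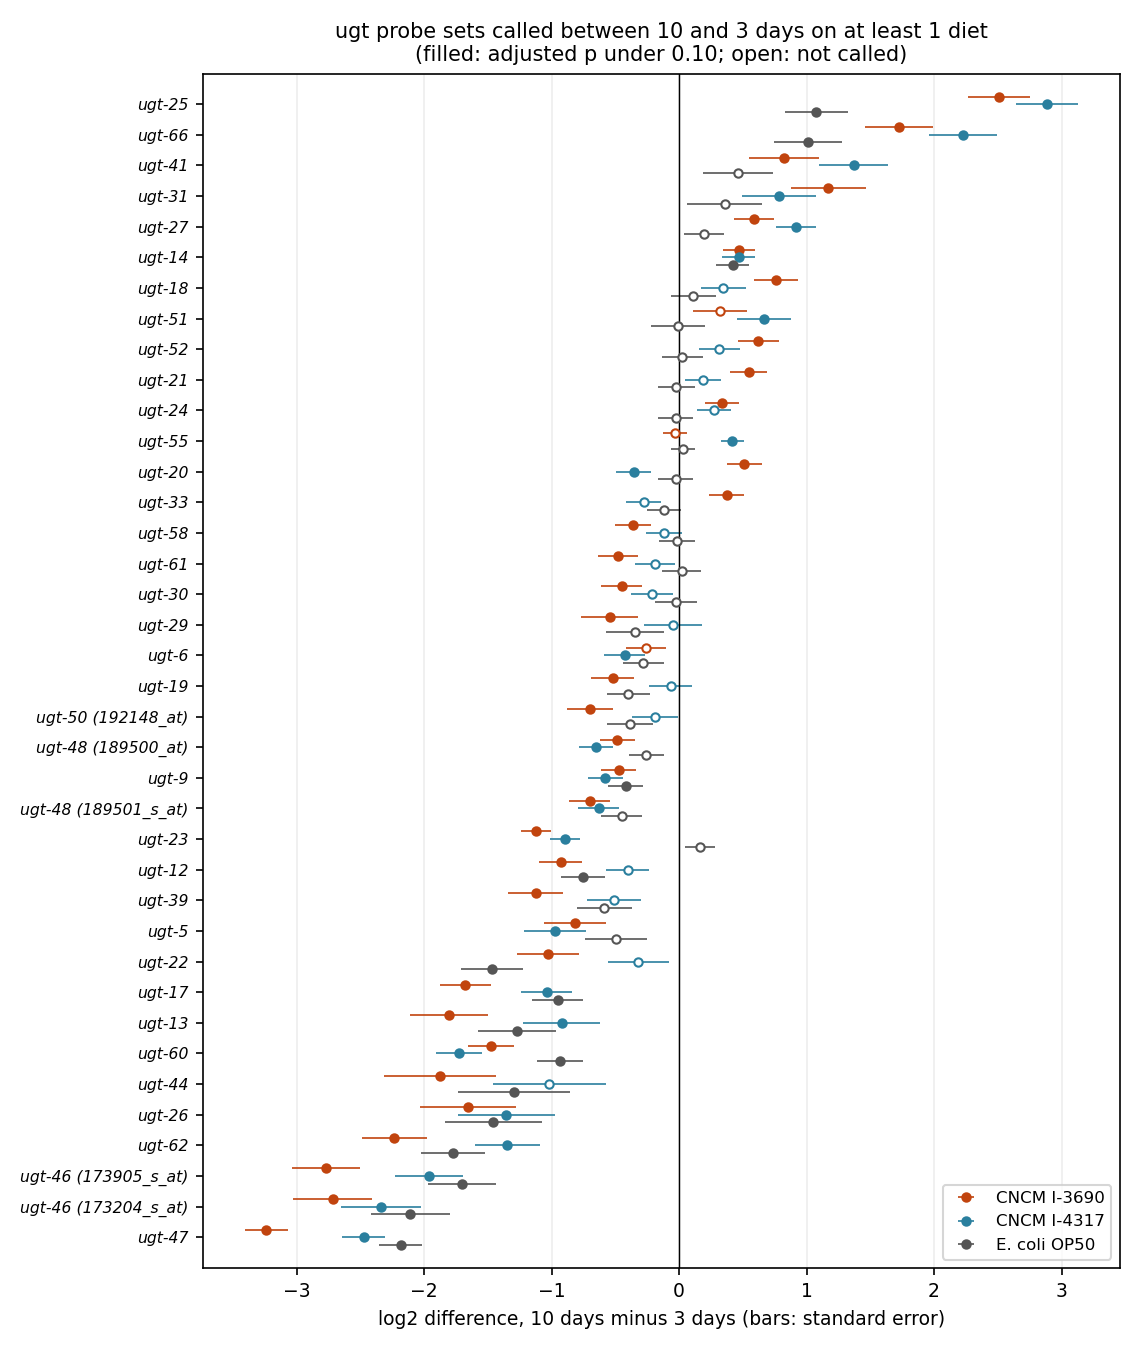
Log2 difference, 10 minus 3 days, with its standard error for the 38 ugt probe sets called on at least 1 diet (1 colour per diet; filled points are called at adjusted p below 0.1). ugt-47 and ugt-46 lie farthest below 0 and ugt-25 and ugt-66 farthest above it on the CNCM diets.

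The deepest falls were those of ugt-47 and ugt-46. At 10 days ugt-47 gave 1.50, 1.35 and 1.14 on CNCM I-3690, with 1.28, 1.77 and 1.51 on CNCM I-4317 and 1.19, 1.72 and 1.56 on OP50. At 3 days it gave 4.55, 4.66 and 4.48 on CNCM I-3690, with 4.39, 3.78 and 3.82 on CNCM I-4317 and 3.76, 3.60 and 3.65 on OP50. No 10-day array came near a 3-day array, and the 10-day values lie around the array medians on each diet. ugt-47 fell by 3.24 on CNCM I-3690 (SE 0.17, adjusted p = 7.70e-09), a factor of 9.43. It fell by 2.47 on CNCM I-4317 (adjusted p = 1.32e-07) and by 2.18 on OP50 (adjusted p = 1.15e-06).

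Both ugt-46 probe sets, each with a suffix letter, fell on each diet. The dimmer one gave 2.64, 1.87 and 1.64 on CNCM I-3690 at 10 days, against 4.89, 5.07 and 4.49 at 3 days. On OP50 it gave 2.85, 1.80 and 1.91 at 10 days, against 4.02, 3.70 and 3.96 at 3 days. The groups did not overlap, and the differences were -2.77 on CNCM I-3690 (SE 0.27), -1.96 on CNCM I-4317 and -1.71 on OP50, with adjusted p at most 0.000575. For the brighter one they were -2.72, -2.34 and -2.11, so both probe sets ranked the diets alike.

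ugt-62 gave 3.77, 3.26 and 2.95 on CNCM I-3690 at 10 days, against 5.94, 5.54 and 5.19 at 3 days, and fell there by 2.23 (SE 0.25, adjusted p = 1.13e-05). On CNCM I-4317 it fell by 1.35 and on OP50 by 1.77, without overlap on any diet. ugt-17 gave 2.14, 2.03 and 1.65 on CNCM I-3690 at 10 days, against 3.68, 3.92 and 3.24 at 3 days, a fall of 1.67. It fell by 1.04 on CNCM I-4317 and by 0.95 on OP50. These genes stayed above the array medians at both times.

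ugt-60 fell most on CNCM I-4317, where it gave 1.46, 1.50 and 1.23 at 10 days, against 3.05, 3.16 and 3.17 at 3 days. It fell there by 1.73 (SE 0.18, adjusted p = 6.93e-06), by 1.48 on CNCM I-3690 and by 0.93 on OP50. ugt-26 fell by 1.65 (SE 0.38) on CNCM I-3690, 1.35 on CNCM I-4317 and 1.46 on OP50. Its 10-day arrays were spread, at 3.42, 2.20 and 3.85 on CNCM I-4317, and without the second of these the fall there was 0.88 (adjusted p = 0.0895). Its call on OP50 was lost without the third 10-day OP50 array (adjusted p = 0.110). ugt-13 and ugt-9, which are named because they were called on every diet, fell by 1.80, 0.92 and 1.27 and by 0.47, 0.58 and 0.42 on CNCM I-3690, CNCM I-4317 and OP50.

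Of the 5 brightest members, ugt-44, ugt-12 and ugt-22 fell on at least 2 diets. ugt-44 gave 5.16, 3.81 and 4.46 on CNCM I-3690 at 10 days, against 6.62, 6.37 and 6.06 at 3 days, a fall of 1.88 (SE 0.44, adjusted p = 0.00492). On OP50 its difference was -1.29 (adjusted p = 0.0925). That call was lost without the second or the third array of either OP50 group (adjusted p up to 0.337) and with the replicate number as a block. On CNCM I-4317 the difference was -1.02 and not called. ugt-12 gave 4.64, 4.66 and 4.40 on CNCM I-3690 at 10 days, against 5.56, 5.40 and 5.53 at 3 days, and fell by 0.93 there and by 0.75 on OP50. ugt-22 fell by 1.03 on CNCM I-3690 and by 1.47 on OP50, and its difference of -0.32 on CNCM I-4317 was not called.

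The largest rise was that of ugt-25. At 10 days it gave 5.64, 5.66 and 5.81 on CNCM I-3690, with 5.89, 5.03 and 5.89 on CNCM I-4317 and 3.94, 4.88 and 4.85 on OP50. At 3 days it gave 3.50, 2.96 and 3.13 on CNCM I-3690, with 2.57, 2.83 and 2.74 on CNCM I-4317 and 3.28, 3.52 and 3.62 on OP50. On each diet all 10-day arrays lay above all 3-day arrays. ugt-25 rose by 2.51 on CNCM I-3690 (SE 0.24, adjusted p = 2.75e-06), by 2.88 on CNCM I-4317 (adjusted p = 8.11e-07) and by 1.08 on OP50 (adjusted p = 0.0107), which are factors of 5.69, 7.39 and 2.11.

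On CNCM I-3690 ugt-66 gave 3.47, 3.43 and 3.51 at 10 days, against 1.92, 1.97 and 1.34 at 3 days. On CNCM I-4317 it gave 3.36, 3.53 and 3.44 at 10 days, against 1.37, 1.12 and 1.16 at 3 days. It rose by 1.73 (SE 0.27) on CNCM I-3690 and by 2.23 on CNCM I-4317. On OP50 the 10-day arrays gave 3.43, 1.99 and 2.08, against 1.53, 1.47 and 1.46 at 3 days, a rise of 1.01 (adjusted p = 0.0282) that was 0.54 (adjusted p = 0.0334) without the first 10-day array. ugt-14 rose by 0.47, 0.47 and 0.42 on CNCM I-3690, CNCM I-4317 and OP50, with values between 1.01 and 1.83 on all arrays, and on OP50 the call (adjusted p = 0.0568) was lost without the first or second 3-day array or the second or the third 10-day array (adjusted p up to 0.189).

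7 probe sets were called between 10 and 3 days on both CNCM diets and not on OP50. ugt-27, ugt-31 and ugt-41 rose on both (4.41%, beside 7.62% of all probe sets), and ugt-23, ugt-5 and both probe sets of ugt-48 fell on both (5.88%, beside 3.78%). Over the whole array, too, calls with time were more frequent on the CNCM diets than on OP50. ugt-23 fell by 1.12 on CNCM I-3690 (SE 0.12, adjusted p = 6.95e-06) and by 0.89 on CNCM I-4317 (adjusted p = 6.62e-05), and its difference on OP50 was 0.16. ugt-41 rose by 0.82 on CNCM I-3690 (adjusted p = 0.0353) and by 1.37 on CNCM I-4317 (adjusted p = 0.00178), and the rise on CNCM I-3690 was 0.48 (adjusted p = 0.183) without the third 3-day array and 0.69 (adjusted p = 0.130) without the first 10-day array. ugt-31 rose by 1.17 on CNCM I-3690 and by 0.78 on CNCM I-4317, where the call was lost without any 1 array except the second at 10 days and the difference was 0.48 (adjusted p = 0.315) without the third at 10 days. Only for ugt-23 among these did the difference between a CNCM diet and OP50 in the change over time pass its own test, as given further on.

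ugt-20, singled out after its values were seen, was the 1 member called in opposite directions. It rose by 0.51 on CNCM I-3690 (SE 0.14, adjusted p = 0.0120) and fell by 0.36 on CNCM I-4317 (adjusted p = 0.0838), with -0.03 on OP50. On CNCM I-3690 it gave 1.19, 1.39 and 1.64 at 10 days, against 1.03, 0.79 and 0.86 at 3 days. On CNCM I-4317 it gave 1.14, 0.67 and 0.86 at 10 days, against 1.14, 1.14 and 1.46 at 3 days. ugt-20 lay below the array median on 15 of the 18 arrays, and the difference between the strains in this change, 0.87, was not called (adjusted p = 0.358).

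Many ugt genes lie beside each other in the genome, as duplicated families often do. Of the 64 genes measured, 40 lie on chromosome V, 11 on IV, 5 on I, 4 on X, 3 on III and 1 on II. With no other protein-coding gene between them, 31 of the 67 ugt genes form 10 runs, the longest of 7 genes. Of the 30 probe sets for genes in runs, 13 were called between 10 and 3 days on at least 1 diet, and of the 38 outside runs, 25 were. The probe sets in runs were also dimmer: 5 lay above the array median on every array and 11 below it, against 16 and 6 outside runs. These shares are given as a description only.

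In some runs, genes lying side by side did not share 1 direction. In the run of 4 on chromosome I, in the order ugt-26, ugt-27, ugt-28 and ugt-25, ugt-26 fell on every diet and ugt-25 rose on every diet. Between them ugt-27 rose by 0.59 on CNCM I-3690 and by 0.92 on CNCM I-4317, with 0.20 on OP50, and ugt-28 was called on none (-0.44, -0.03 and -0.32). In the run of 7 on chromosome V (ugt-11, ugt-9, ugt-10, ugt-67, ugt-8, ugt-14 and ugt-13), the last 2 neighbours moved opposite ways on every diet, ugt-14 up and ugt-13 down, ugt-9 fell and the other 4 were not called. In the pair ugt-43 and ugt-44 on chromosome IV, ugt-43 differed by 0.16, 0.07 and 0.01 on the 3 diets and was not called, beside the falls of ugt-44. In another run of 4 on chromosome V (ugt-5, ugt-4, ugt-6 and ugt-3), ugt-5 and ugt-6 were both called lower on CNCM I-4317, by 0.97 and 0.43. Both of these probe sets carry a suffix letter, and ugt-4 and ugt-3 were called on no diet. Members of these runs outside the naming rule were named for their position.

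**Figure D3:**
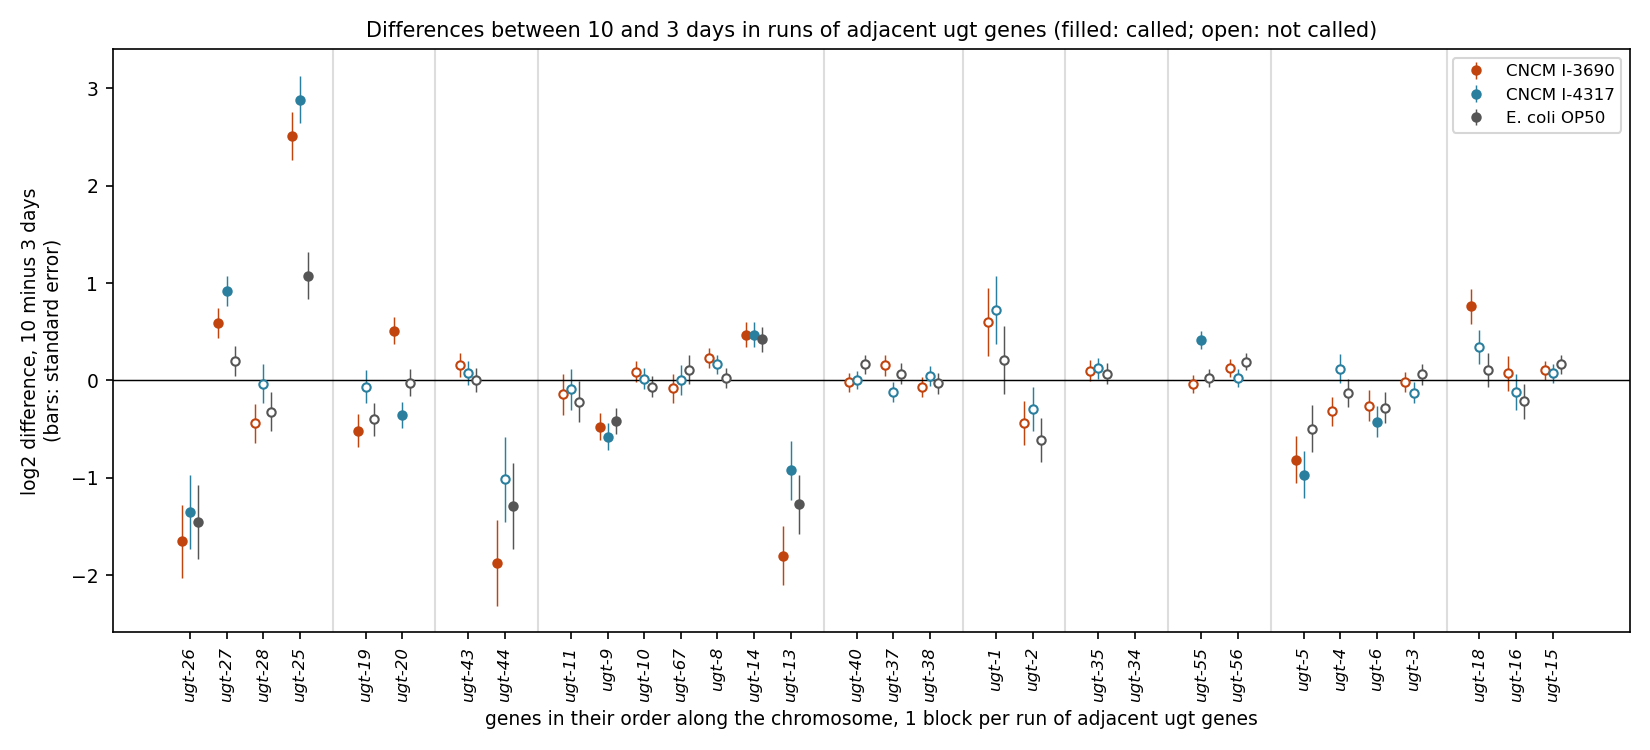
Log2 difference, 10 minus 3 days, with its standard error for the ugt genes that lie side by side, in chromosome order within each of the 10 runs (1 colour per diet). ugt-26 and ugt-25, and ugt-13 and ugt-14, lie on opposite sides of 0 within their runs.

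At 10 days, a small set of members separated the CNCM diets from OP50. On CNCM I-3690, 3 of the 68 were higher than on OP50 (4.41%, beside 0.358% of all probe sets) and 1 was lower (1.47%, beside 0.181%). On CNCM I-4317, 3 were higher (4.41%, beside 0.588%) and 1 was lower (1.47%, beside 0.349%). ugt-25 was higher and ugt-23 was lower on both. Both comparisons use the same 3 OP50 arrays. The median ugt difference was 0.01 for CNCM I-3690 and 0.06 for CNCM I-4317, beside -0.01 and 0.01 for all probe sets, so the bulk of the family lay near 0.

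ugt-23 at 10 days gave 4.01, 3.80 and 3.78 on CNCM I-3690 and 3.58, 3.68 and 3.68 on CNCM I-4317, against 4.57, 4.67 and 4.35 on OP50. Every CNCM array lay below every OP50 array. The differences from OP50 were -0.67 (SE 0.12, adjusted p = 0.0240) and -0.89 (SE 0.12, adjusted p = 0.00263), which are factors of 1.59 and 1.85.

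ugt-25 exceeded OP50 by 1.15 on CNCM I-3690 (SE 0.24, adjusted p = 0.0616) and by 1.05 on CNCM I-4317 (SE 0.24, adjusted p = 0.0781), with the array values given above. All 6 CNCM arrays, at 5.03 to 5.89, lay above the OP50 arrays, at 3.94 to 4.88. ugt-22 gave 4.59, 3.81 and 4.50 on CNCM I-3690 and 4.86, 4.94 and 4.93 on CNCM I-4317, against 4.03, 3.37 and 3.32 on OP50. It was higher by 1.33 on CNCM I-4317 (SE 0.24, adjusted p = 0.0190), without overlap. Its difference on CNCM I-3690, 0.72 (95% interval 0.21 to 1.23), was not called, and 1 of those arrays lay within the range of OP50.

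ugt-41 gave 3.80, 3.40 and 3.41 on CNCM I-3690 and 3.54, 2.81 and 3.13 on CNCM I-4317, against 2.08, 2.35 and 2.42 on OP50. It was higher by 1.25 on CNCM I-3690 (SE 0.27, adjusted p = 0.0678), and its difference of 0.88 on CNCM I-4317 was not called (adjusted p = 0.215), although neither diet overlapped OP50. ugt-21 was higher by 0.76 on CNCM I-3690 (SE 0.14, adjusted p = 0.0270), with 1.40, 1.96 and 1.55, against 0.82, 0.76 and 1.03 on OP50. ugt-27 was higher by 0.69 on CNCM I-4317 (SE 0.16, adjusted p = 0.0724), with 1.86, 1.06 and 1.35, against 0.62, 0.87 and 0.71 on OP50. The OP50 values of ugt-21 and ugt-27 lie below the array medians.

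Of these calls at 10 days, ugt-23 and ugt-22 on CNCM I-4317 held in every alternative run on them. On CNCM I-3690 the 4 calls became 2 without the first 10-day CNCM I-3690 array, 0 without the second, 1 without the third and 1 without the second OP50 array, and ugt-41 was not called without any 1 of the 6 arrays. The CNCM I-3690 call of ugt-23 was lost without the second OP50 array, without the second or the third CNCM I-3690 array, and with only the 9 arrays of 10 days (adjusted p up to 0.112). That of ugt-25 was lost without the first OP50 array, without any 1 CNCM I-3690 array, and with only those 9 arrays (adjusted p up to 0.275). That of ugt-21 was lost without the second OP50 or the second CNCM I-3690 array, and with only those 9 arrays (adjusted p up to 0.142). On CNCM I-4317 the calls became 2 without the third CNCM I-4317 array. There ugt-25 was not called without the first OP50 array or the first or the third CNCM I-4317 array (adjusted p up to 0.280), and ugt-27 without any 1 array except the second CNCM I-4317 array. With only the 9 arrays of 10 days neither was called on CNCM I-4317.

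Among marker lists, the mean sperm level at 10 days was 1.29 to 3.62 on CNCM I-3690 and 1.29 to 3.39 on CNCM I-4317, against 1.23 to 1.48 on OP50. No sperm, intestine, hypodermis or oocyte probe set was called between diets at 10 days. Some had an unadjusted p below 0.05 without a call. For CNCM I-3690 against OP50 these were 4 of 9 sperm, 4 of 14 intestine, 1 of 9 hypodermis and 0 of 18 oocyte probe sets. Of all 22625 probe sets, 1646 had such a p there. For CNCM I-4317 against OP50 the counts were 0, 1, 0 and 2, beside 2426 of all. Of the muscle list 1 was higher on CNCM I-3690 than on OP50 (11.1%, beside 0.358% of all probe sets). Of the neuron list 1 was higher on CNCM I-4317 (10%, beside 0.588%). Their part in the ugt differences at 10 days was not tested.

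**Figure D4:**
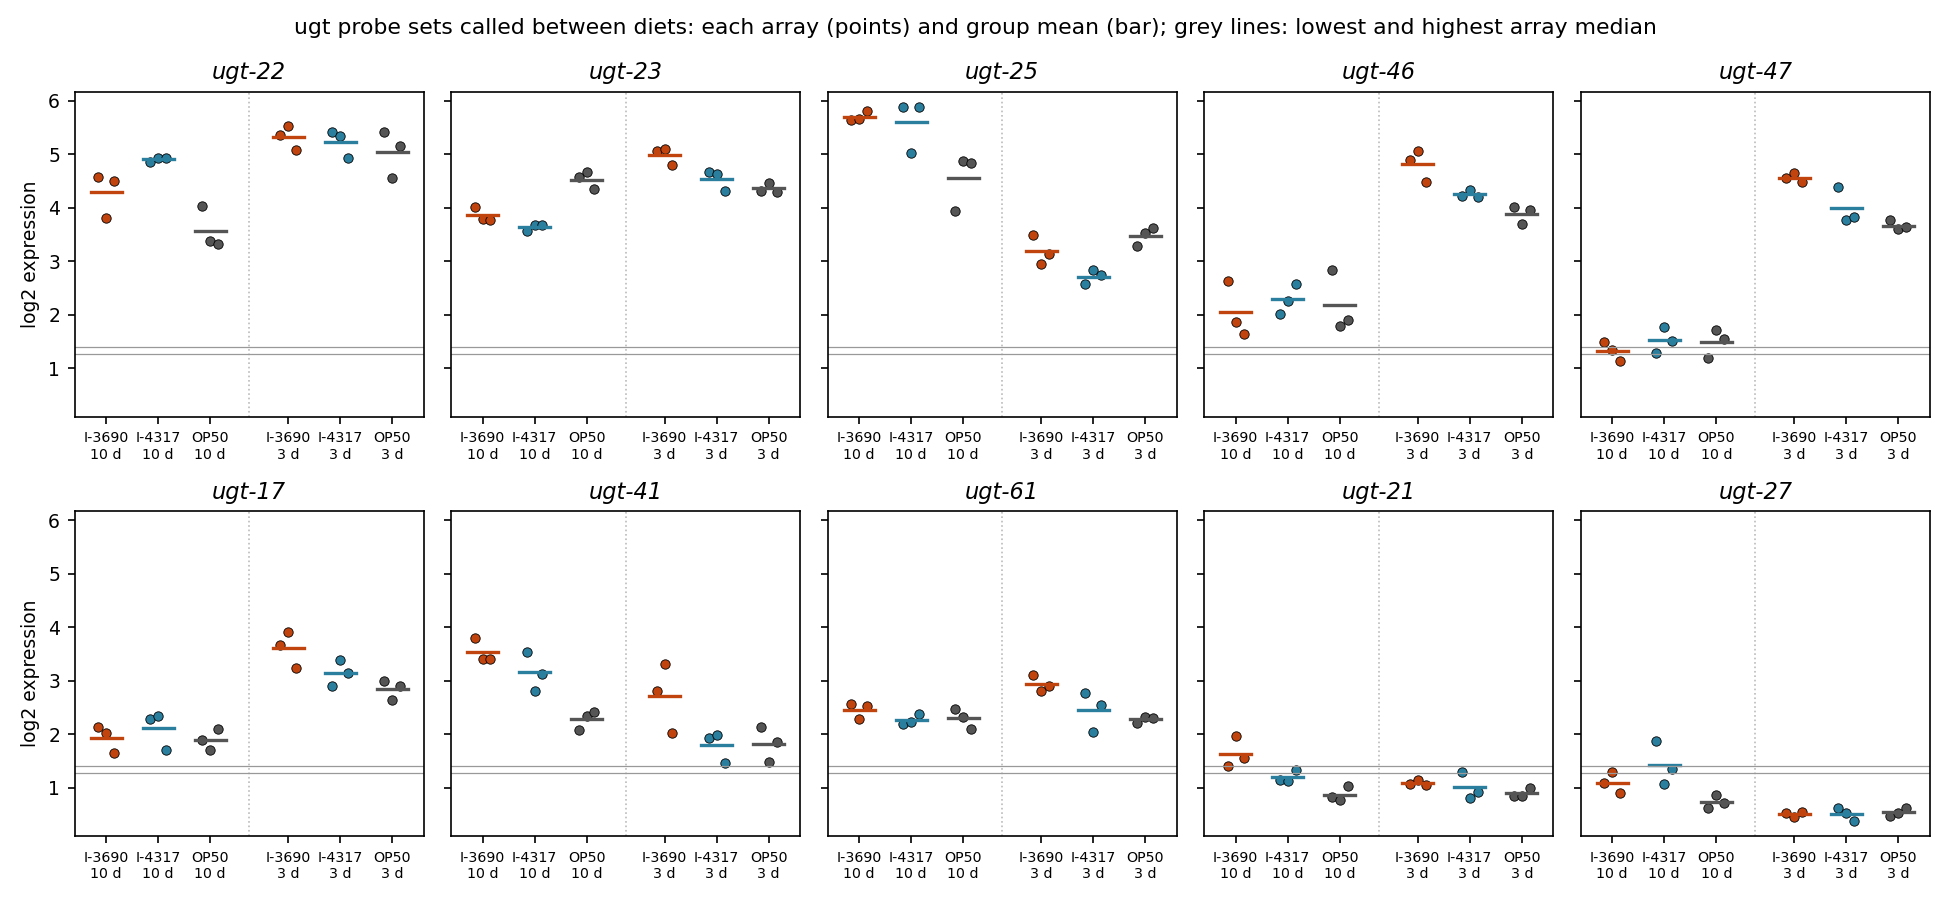
Log2 signal on each array (points) and group mean (bars) for the 10 ugt probe sets called between diets, with 10 days left of 3 days and the diets in the order CNCM I-3690, CNCM I-4317 and OP50. ugt-23 is lower on both CNCM diets than on OP50 at 10 days, and ugt-25 is higher.

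At 3 days, 6 of the 68 were higher on CNCM I-3690 than on OP50 (8.82%, beside 3.85% of all probe sets) and none was lower (beside 2.27%). They were ugt-46 (its dimmer probe set), ugt-47, ugt-41, ugt-17, ugt-61 and ugt-23. Of all calls in this comparison 62.9% were higher with the deposited values, 85.2% after cyclic loess and 52.7% after centring. On CNCM I-4317 none was called against OP50 (beside 0.115%), with 4 at an unadjusted p below 0.05, as had 9.8% of all probe sets. The median ugt difference was 0.09 for CNCM I-3690 and -0.01 for CNCM I-4317, beside -0.05 and -0.01 for all probe sets.

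ugt-47 at 3 days was higher on CNCM I-3690 than on OP50 by 0.89 (SE 0.17, adjusted p = 0.0109). The array values given above do not overlap, and those on CNCM I-4317 lie between them. ugt-23 gave 5.06, 5.10 and 4.80 on CNCM I-3690, against 4.32, 4.47 and 4.30 on OP50, and was higher by 0.62 (SE 0.12, adjusted p = 0.0114). On CNCM I-4317 it gave 4.66, 4.64 and 4.32.

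ugt-46 was higher by 0.92 with its dimmer probe set (SE 0.27, adjusted p = 0.0729), while the brighter one differed by 0.65 and was not called. ugt-17 gave 3.68, 3.92 and 3.24 on CNCM I-3690, against 3.00, 2.64 and 2.89 on OP50, and was higher by 0.77 (SE 0.20, adjusted p = 0.0496). ugt-61 gave 3.11, 2.80 and 2.89 on CNCM I-3690, against 2.22, 2.33 and 2.30 on OP50, and was higher by 0.66 (SE 0.15, adjusted p = 0.0318). Between 10 and 3 days on CNCM I-3690, which shares these 3-day arrays, ugt-61 fell by 0.48, a call lost without the first 3-day or the second 10-day array. The arrays of ugt-46, ugt-17 and ugt-61 did not overlap between these diets. ugt-41 gave 2.81, 3.31 and 2.02 on CNCM I-3690, against 2.14, 1.48 and 1.85 on OP50, which overlap, with a difference of 0.89 (SE 0.27, adjusted p = 0.0856) that was 0.59 (adjusted p = 0.385) without the second CNCM I-3690 array.

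The largest ugt difference from OP50 at 3 days did not pass. ugt-44, brought in here for its size, gave 6.62, 6.37 and 6.06 on CNCM I-3690, against 4.64, 5.0 and 5.66 on OP50, without overlap, and differed by 1.25 (SE 0.44, adjusted p = 0.139). Calls of ugt-47 and ugt-23 at 3 days held in every alternative run on them. The count of 6 became 3 without the second or the third OP50 array, 2 without the first CNCM I-3690 array and 3 without the second. Without each of these arrays ugt-46, ugt-41 and ugt-17 were not called, and ugt-61 was not called without the first CNCM I-3690 array.

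Markers of other tissues also differed between CNCM I-3690 and OP50 at 3 days. Of 9 sperm probe sets, 7 were higher on CNCM I-3690 than on OP50 at 3 days and none was lower. The mean level of the 9 was 5.47 to 6.85 on CNCM I-3690, against 2.82 to 3.81 on OP50. Those for msp-3, msp-50, gsp-3 and gsp-4 carry a suffix letter, so counts of this list may not be separate readings. Of 14 intestine probe sets 2 were higher and none was lower (4.16 to 4.29 on CNCM I-3690, against 3.59 to 3.81 on OP50), and of 18 oocyte probe sets none was higher and 4 were lower (7.86 to 8.0, against 8.24 to 8.30). Of 9 hypodermis and 9 muscle probe sets, 2 each were higher and none was lower. Called were 77.8% of the sperm and 14.3% of the intestine probe sets. For oocyte, hypodermis and muscle it was 22.2% each. Over all probe sets it was 6.12%, with 3.85% higher and 2.27% lower. On CNCM I-4317 at 3 days the sperm level was 4.49 to 6.41, with no call against OP50. Even so, 7 of the 9 sperm probe sets there had an unadjusted p below 0.05 (beside 9.8% of all probe sets). On each CNCM diet 8 of the 9 lay above OP50 on all arrays. No marker list was at 0 in any group, and the part of these tissues in the ugt differences was not tested.

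The same lists moved with time. All 9 muscle probe sets fell on each diet, and 8 of 9 sperm probe sets fell on CNCM I-3690, 7 on CNCM I-4317 and 5 on OP50. The mean sperm level was 1.29 to 3.62 on CNCM I-3690 at 10 days, against 5.47 to 6.85 at 3 days. Of 14 intestine probe sets, 8, 8 and 5 fell and 1 rose on CNCM I-3690, CNCM I-4317 and OP50. Of 9 hypodermis probe sets, 7, 5 and 4 fell and 1 rose on CNCM I-3690, and of 18 oocyte probe sets, 17, 14 and 4 rose. Of 10 neuron probe sets, 2, 2 and 1 rose and 4, 3 and 0 fell. Over all probe sets 17.3%, 15.4% and 5.41% rose and 12.6%, 10% and 5.37% fell on CNCM I-3690, CNCM I-4317 and OP50. The part of these tissues in the ugt changes with time was not tested.

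Between the Lactobacillus strains no ugt probe set was called. At 3 days (beside 0.119% of all probe sets), 15 of the 68 had an unadjusted p below 0.05 (beside 8.99% of all), 13 of them higher on CNCM I-3690 (beside 4.88%). On CNCM I-3690 18 lay above CNCM I-4317 on all arrays (beside 6.51%) and 3 below (beside 8.17%). ugt-44 differed most, by 1.61 (SE 0.44, adjusted p = 0.298), with 6.62, 6.37 and 6.06 on CNCM I-3690, against 5.51, 4.76 and 3.95 on CNCM I-4317. ugt-41 differed by 0.92 (adjusted p = 0.315). At 10 days (beside 0.0177%), 6 of 68 had an unadjusted p below 0.05 (beside 7.22% of all), 3 in each direction. The 95% interval of the difference lay within 1 log2 unit of 0 for 60 of the 68 at 3 days and for 65 at 10 days. A missing call does not show that the strains act alike: the interval of ugt-22 at 10 days ran from -1.12 to -0.10, on the side of a lower level on CNCM I-3690.

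Whether the effect of a diet differed between 10 and 3 days was tested directly. For CNCM I-3690 against OP50, 1 of the 68 had a higher difference at 10 days (1.47%, beside 0.327% of all probe sets) and 2 a lower one (2.94%, beside 0.482%). For CNCM I-4317 against OP50, 1 was higher (1.47%, beside 0.159%) and 1 was lower (1.47%, beside 0.0707%). Over all probe sets, 40.4% of the calls for CNCM I-3690 were higher with the deposited values, 25.1% after cyclic loess and 49.5% after centring. Between the Lactobacillus strains none was called (beside 0%), with 10 at an unadjusted p below 0.05 (beside 5.43%).

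On CNCM I-3690 ugt-23 was lower than on OP50 by 0.67 at 10 days and higher by 0.62 at 3 days, and the effect differed by -1.29 between times (SE 0.17, adjusted p = 0.00307). For CNCM I-4317, where ugt-23 at 3 days had differed from OP50 by 0.17 and was not called, the difference was -1.06 (SE 0.17, adjusted p = 0.0217). OP50 arrays of ugt-23 lay at 4.35 to 4.67 at 10 days, against 4.30 to 4.47 at 3 days, so the OP50 groups were close to each other at both times. Both differences between times held in every alternative run on them, while the 10-day call on CNCM I-3690 was lost in the alternatives given above.

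ugt-25 differed by 1.43 (SE 0.35, adjusted p = 0.0982) for CNCM I-3690 and by 1.81 (SE 0.35, adjusted p = 0.0664) for CNCM I-4317, and both calls were lost after cyclic loess (adjusted p = 0.128 and 0.111). The CNCM I-3690 call was lost without any 1 array except the third at 3 days on CNCM I-3690 and the third at 10 days on OP50. The CNCM I-4317 call was lost without the second or the third 3-day OP50 array, the first or second 3-day CNCM I-4317 array, or the first or the third 10-day CNCM I-4317 array. At 3 days ugt-25 had differed from OP50 by -0.28 on CNCM I-3690 and by -0.76 on CNCM I-4317, neither of them called. ugt-47 differed by -1.05 for CNCM I-3690 (SE 0.24, adjusted p = 0.0841), being higher at 3 days and within 0.16 of OP50 at 10 days. This call was lost without any 1 array except the third at 3 days and the first at 10 days on CNCM I-3690 and the first at 10 days on OP50, with an adjusted p up to 0.225. Across the 68 probe sets, the differences from OP50 at 10 and at 3 days correlated at 0.176 on CNCM I-3690 and at -0.004 on CNCM I-4317 (Pearson). Over all probe sets these values were 0.243 and 0.158. They are a description over probe sets of 1 array design.

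**Figure D5:**
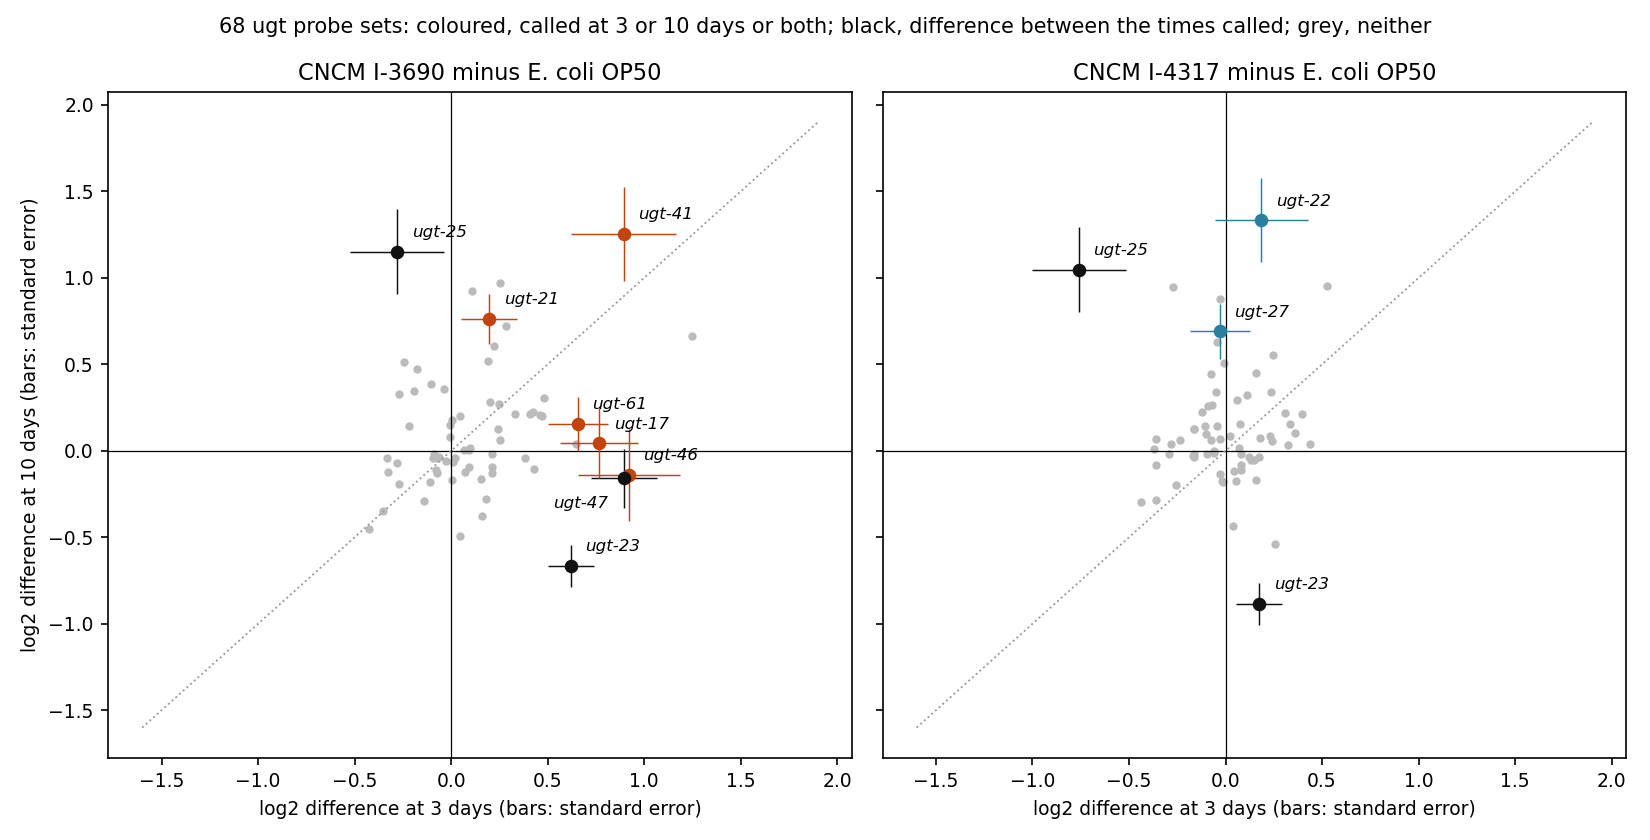
Log2 difference from OP50 at 10 days (vertical) against 3 days (horizontal) for the 68 ugt probe sets, CNCM I-3690 on the left and CNCM I-4317 on the right. Coloured points are called at 3 or at 10 days, or at both, and black points where the effect differed between times. ugt-23 lies below 0 at 10 days on both diets and ugt-25 lies above 0.

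Other genes of the detoxification route are given for comparison, with no test against the ugt family. Of 78 probe sets for cytochromes P450, which add an oxygen to the compound first, 23 rose and 1 fell between 10 and 3 days on CNCM I-3690, with 22 and 4 on CNCM I-4317, and 12 and 2 on OP50. Of 33 for short-chain dehydrogenases, 10 rose and 8 fell on CNCM I-3690, with 10 and 7 on CNCM I-4317, and 4 and 6 on OP50. Of 46 for glutathione S-transferases, 7 rose and 7 fell on each CNCM diet, and 4 and 6 on OP50. Of 47 for ABC transporters, which export conjugates, 7 rose and 12 fell on CNCM I-3690, with 6 and 6 on CNCM I-4317, and 0 and 1 on OP50. On CNCM I-3690, CNCM I-4317 and OP50, 30.8%, 33.3% and 17.9% of the cytochrome P450 probe sets were called. For short-chain dehydrogenases it was 54.5%, 51.5% and 30.3%, for glutathione S-transferases 30.4%, 30.4% and 21.7%, and for ABC transporters 40.4%, 25.5% and 2.13%. Over all probe sets it was 29.8%, 25.5% and 10.8%.

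At 10 days 5 cytochrome P450 probe sets were higher on CNCM I-3690 than on OP50 (6.41%, beside 0.358% of all probe sets). On CNCM I-4317 3 were higher (3.85%, beside 0.588%), and none was lower on either diet. cyp-35A3 exceeded OP50 by 1.97 on CNCM I-3690 and by 2.12 on CNCM I-4317, and cyp-35C1, with the brighter of its probe sets, by 1.36 and 1.07, beside the 1.15 and 1.05 of ugt-25. gst-4, a glutathione S-transferase often used as a readout of SKN-1, was higher than on OP50 by 1.24 with CNCM I-3690 and by 1.34 with CNCM I-4317 at 10 days, and by 1.31 with CNCM I-3690 at 3 days. At 3 days 4 probe sets each for glutathione S-transferases and ABC transporters were higher on CNCM I-3690 than on OP50. For ABC transporters and cytochromes P450, 3 each were lower. Over all probe sets 3.85% were higher and 2.27% lower. mrp-3, an ABC transporter, was higher by 1.35. The 3 lower cytochrome P450 probe sets were a pair for cyp-35C1, with differences of -1.14 and -0.73, and 1 for cyp-13B1, with -0.62.

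Metabolism and transport of UDP-sugars were covered by 6 probe sets for 5 genes, and these are not limited to genes that supply the sugar donor. On each Lactobacillus diet 4 of the 6 rose and 1 fell between 10 and 3 days, and on OP50 2 rose. Called on CNCM I-3690, CNCM I-4317 and OP50 were 83.3%, 83.3% and 33.3%, beside 29.8%, 25.5% and 10.8% of all probe sets. None was called between diets, with at most 2 at an unadjusted p below 0.05. sqv-4, which makes UDP-glucuronic acid from UDP-glucose, rose by 0.55 on CNCM I-3690 and by 0.40 on OP50. sqv-7, which carries UDP-sugars into the Golgi, rose by 0.68 on CNCM I-3690 with 1 of its probe sets. D1005.2 was the 1 that fell, by 0.58 on CNCM I-3690 (adjusted p = 0.00612) and by 0.48 on CNCM I-4317 (adjusted p = 0.0232). A link between this list and the ugt genes was not tested.

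Among 19 probe sets for 12 regulators of detoxification, 4 rose and 2 fell between 10 and 3 days on CNCM I-3690, with 6 and 3 on CNCM I-4317, and 0 and 1 on OP50. These calls were 31.6%, 47.4% and 5.26% of the 19, beside 29.8%, 25.5% and 10.8% of all probe sets. nhr-8, a nuclear receptor needed for resistance to toxins, fell by 1.50 on CNCM I-3690 and by 1.07 on CNCM I-4317. At 10 days 1 probe set of skn-1, which codes for the main activator of conjugating enzymes, was higher on CNCM I-4317 than on OP50 by 0.70, while its other 2 probe sets differed by -0.06 and -0.09 and were not called. wdr-23, whose product restrains SKN-1, was higher there by 0.49. On CNCM I-3690 no regulator was called against OP50 at either time, with 4 of the 19 at an unadjusted p below 0.05 at 10 days and 1 at 3 days.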

How the data were processed

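RNA of whole worms was hybridised to Affymetrix GeneChip C. elegans Genome Arrays. The values are log2 intensities that the authors deposited after background correction and quantile normalization by RMA (version not given in the sources used here). All arrays had values on 1 scale and no further scaling was applied. Of 22625 probe sets, 20766 have 1 symbol in the platform annotation, 887 several and 972 none. The probe set that names a ugt gene with another gene was left out.

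Groups came from the diet and time labels. limma 3.58.1 (R 4.3.3) fitted 1 mean per group over 18 arrays (12 residual and 4.09 prior degrees of freedom), with 12 contrasts and Benjamini-Hochberg adjustment over all probe sets in each contrast. The study's methods name limma and state an adjusted p limit of 0.01, while its tables list genes up to a looser limit. A call here is an adjusted p below 0.1, and 0.01 was added as an alternative after seeing the data. The script was tested on simulated data.

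Named ugt probe sets (22, for 21 genes) were those called in any comparison of diets or any difference between times in a diet effect, the 5 largest called rises and falls with time per diet, the 5 highest means, and other probe sets of those genes. Of other lists, up to 4 called genes with the smallest adjusted p were eligible. Other ugt genes named in the text were chosen after their values were seen. Members and lists were chosen with earlier results of these data known.

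Alternatives were cyclic loess, median centring, a limit of 0.05, a filter on dim probe sets (below the 40th percentile of mean signal), no probe sets with a suffix letter, arrays of 1 time only, the replicate number as a block, and leaving out each array. Same-numbered arrays did not pair: correlations of their deviations ran from -0.32 to 0.47, and in 0 of 9 comparisons were all above 0.1. Single members were not recounted under 0.05, 0.01 or the suffix alternative. Arrays give no read depth, so 3 arrays per group limit the precision.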

Additional observations from a re-analysis of the deposited data

Results flagged for a closer look

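The effect of a diet was called as different between times for 3 ugt genes, by a test of the difference itself. Only the calls of ugt-23 held in every alternative run on them. Of 16 alternatives, ugt-25 lost its call in 11 for CNCM I-3690 and in 7 for CNCM I-4317, and ugt-47 in 9 for CNCM I-3690. For CNCM I-3690 against OP50, the 10-day minus 3-day difference in effect was -1.29 for ugt-23 (SE 0.17, adjusted p = 0.00307), 1.43 for ugt-25 (SE 0.35, adjusted p = 0.0982) and -1.05 for ugt-47 (SE 0.24, adjusted p = 0.0841). For CNCM I-4317 against OP50 it was -1.06 for ugt-23 (SE 0.17, adjusted p = 0.0217) and 1.81 for ugt-25 (SE 0.35, adjusted p = 0.0664). Both diets share the OP50 arrays. Groups of 3 arrays are too small for a test of single arrays that stand apart.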

How the results depend on the processing

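Of the 67 results for named ugt probe sets, 47 kept their call and direction under the alternatives run on single members (cyclic loess, centring, the filter, arrays of 1 time for diet comparisons, the block and left-out arrays), and of all 711 pairs of result and alternative 617 kept it, 94 lost it and 0 reversed. Of 90 counts of calls outside the fits without 1 array, 74 stayed within 1.5 times. At an adjusted p below 0.05 the ugt calls against OP50 at 10 days were 2 for each Lactobacillus diet, and those for the effect that differed between times were 1 and 1. At an adjusted p below 0.01, chosen after seeing the data, the calls against OP50 were 0 for CNCM I-3690 at either time and, at 10 days, 1 for CNCM I-4317, with time 20, 15 and 7 on CNCM I-3690, CNCM I-4317 and OP50, and for the effect that differed between times 1 for CNCM I-3690 and 0 for CNCM I-4317. With only the 9 arrays of 10 days the calls against OP50 were 1 for CNCM I-3690 and 2 for CNCM I-4317. After cyclic loess the effect of CNCM I-4317 differed between times for 1, and without probe sets with a suffix letter 15 were called with time on CNCM I-4317. The causes were not tested, other than that a stricter limit, fewer probe sets or fewer arrays leave fewer calls.

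Without 1 array at a time, the counts at 3 days were 2 to 7 for CNCM I-3690 against OP50, 0 to 0 for CNCM I-4317 against OP50 and 0 to 4 between the strains (4 without the third CNCM I-3690 array, 1 without the first CNCM I-4317 array). At 10 days they were 0 to 3, 2 to 6 and 0 to 0. With time they were 28 to 33 on CNCM I-3690, 20 to 23 on CNCM I-4317 and 11 to 18 on OP50. For the effects that differed between times they were 1 to 3, 1 to 3 and 0 to 0, with ugt-23 kept in each. For CNCM I-3690 that count was 1 without any 1 of the 3-day OP50 arrays, the first or second 3-day CNCM I-3690 array, the second 10-day OP50 array, or the second or the third 10-day CNCM I-3690 array. For CNCM I-4317 it was 1 without the second or the third 3-day OP50 array, the first or second 3-day CNCM I-4317 array, or the first or the third 10-day CNCM I-4317 array.

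The replicate number is shared by label only. With the replicate number as a block the counts were 7, 0 and 0 at 3 days, 4, 4 and 0 at 10 days, 34, 24 and 15 with time, and 3, 2 and 0 for the effects that differed between times, and among named members ugt-44 on OP50 lost its call. Centring moved the median of all probe sets to 0.13 for time on CNCM I-3690 and to 0.11 for its effect that differed between times. Of the 68 ugt probe sets, 17 lay below the array median on every array, where small differences are hard to measure.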
